A study of Mus musculus with 6 samples.

Results

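The urokinase receptor and its plasminogen activator system were followed in mouse LSK cells, the Lineage- c-Kit+ Sca1+ fraction of bone marrow in which blood stem cells and multipotent progenitors are concentrated. The 6 genes Plaur, Plau, Plat, Serpine2, Serpinb2 and Plgrkt were selected on the contrast of knockout against control over all 6 arrays, so their differences are given below as a description and without a test. Of these 6 genes, 5 had a probe set that the platform annotation names for 1 gene, out of 30748 genes so named, and each of the 5 had a single probe set. Serpine2, which encodes a serpin that inhibits urokinase, tissue activator and thrombin, was not analysed here, because no probe set was annotated to it. Serpinb2 was below the dim level, the median of all probe sets, so 4 of the 6 were measured above it.

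The knockout group held 3 arrays of LSK cells from miR-21flox/flox:Mx1-Cre+ mice, and the control group 3 arrays from littermates of the genotype miR-21flox/flox:Mx1-Cre-. Both groups carried the floxed alleles and both received 250 µg of pIpC in each of 7 injections, starting at 4 to 6 weeks of age, with cells taken 4 weeks afterwards. Cre is driven by the interferon-responsive Mx1 promoter, which pIpC switches on in blood cells and in other tissues, and only the knockout mice carried it, so effects of Cre and of miR-21 loss cannot be told apart. The labels do not say whether an array stands for 1 mouse or for pooled mice. P-values below therefore measure the spread between these arrays only.

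Plasminogen is the precursor of plasmin, a protease that cuts fibrin and matrix proteins and activates other proteases. Urokinase (Plau) and tissue activator (Plat) convert it, serpins such as Serpine2 and Serpinb2 inhibit them, and the urokinase receptor (Plaur), which a lipid anchor holds in the cell membrane, gathers urokinase at the cell surface. The receptor also binds vitronectin and acts together with integrins, and in mice it is known for a part in keeping blood stem and progenitor cells in the marrow and in their release.

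The microRNA deleted in these mice is shown with its seed, bases 2 to 8, in capitals, since it defines the knockout. Both mature forms are from RefSeq, build GRCm38.p6, minus strand, at chr11:86584120-86584141 for the 5p form and chr11:86584082-86584103 for the 3p form.
mmu-miR-21a-5p: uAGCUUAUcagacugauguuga
mmu-miR-21a-3p: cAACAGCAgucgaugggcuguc
The 1 probe set annotated to the miR-21 gene is annotated to its host gene Vmp1 as well. Its log2 values were 5.65, 5.64 and 5.76 in the knockout arrays, against 5.65, 5.60 and 5.63 in the control arrays, and since signal from Vmp1 reaches it, the deletion cannot be checked with it.

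The values are log2 values from RMA, a method that corrects background, puts all arrays on 1 intensity distribution and summarises probes into probe sets. The 6 arrays had medians of 1.90 to 1.95. Pearson correlations over all probe sets were 0.995 to 0.997 within a group and 0.987 to 0.991 between groups. Of the genes behind the sort, Kit averaged 8.15 in knockout and 8.61 in control arrays, while Ly6a, the Sca-1 gene, was not measured by a probe set of its own. The dim level was 1.92, and genes with a mean below it are called dim. Of the lineages that the sort gates out, B cells had 1 of 4 measured genes dim (Ms4a1). T and NK cells had 3 of 8 dim (Cd3d, Cd3g and Ncr1). The others of these lists, such as Cd79b and Cd3e, were not dim. Of myeloid genes, Itgam (5.17 in knockout, 5.60 in control) and Ly6g (2.61 and 2.23) averaged above the dim level in both groups. The precision is limited by the number of arrays, 3 per group.

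Plaur, the receptor of the system, was lower in knockout LSK cells. Its log2 values were 6.71, 6.71 and 6.70 in the knockout arrays, against 8.44, 8.31 and 8.29 in the control arrays. The groups did not overlap, and the gap between the highest knockout and the lowest control value was 1.58. The means were 6.71 ± 0.01 in knockout and 8.35 ± 0.08 in control (SD, n = 3 each). The difference was -1.64 ± 0.06 (SE from limma), which is a 3.12-fold lower level with a 95% interval of 2.84-fold to 3.44-fold. Put another way, the knockout signal was 32.0% of the control signal. Among the 19092 genes above the dim level, Plaur had the 28th lowest difference. In bulk RNA such as this, fewer cells that carry a transcript and less of it per cell cannot be told apart.

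The knockout arrays gave almost the same Plaur value. The 3 values spanned 0.01, against 0.15 in the control arrays. Only 0.718% of the genes above the dim level had a knockout SD as small, whereas 49.4% had a control SD as small as that of Plaur. An SD from 3 arrays is itself imprecise, so nothing is read from this. When each array was left out in turn, the difference stayed between -1.67 and -1.60.

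Plaur is known in other tissues as a gene of activated monocytes and neutrophils, and markers of these lineages were therefore set beside it. The lists do not separate early from mature or activated cells. Of 12 neutrophil lineage markers, 12 were above the dim level and all 12 were called higher in knockout, against 19.1% of all genes tested. Their linear signals summed to 2462 to 2520 in the knockout arrays, against 1030 to 1103 in the control arrays. Mpo (10.50 in knockout, 9.53 in control) and Elane (9.05 and 6.99) were the brightest on the log2 scale and weighed most in these sums. No sum without them was made. Of 9 monocyte and macrophage markers, 8 had a probe set and 6 were above the dim level, while Adgre1 and Ms4a7 were dim. Of the 6, 4 were called higher, against 19.1% of all genes tested, namely Ly6c2, Csf1r, Cx3cr1 and Ccr2. Ccr2 was below the dim level in control (1.83) and passed the filter through its knockout values (2.99). Cd14 (0.05) and Cd68 (-0.16) were not called. Itgam, the alpha chain of Mac-1 of neutrophils and monocytes, was in neither list and was called lower (-0.43, limma adjusted p = 0.00175). The summed signal of the 8 monocyte and macrophage markers was 575 to 601 in knockout and 261 to 281 in control. Ly6c2 alone gave 420 to 443 in knockout and 121 to 132 in control, and without it the sums were 150 to 158 and 139 to 154. Of 10 measured markers of stem and progenitor cells, 7 were called lower and 2 (Slamf1 and Cd48) higher, against 31.1% of all genes called in either direction, with sums of 1608 to 1704 in knockout and 1825 to 1899 in control. Of the 7, Cd34 only just passed the threshold (-0.16, limma adjusted p = 0.0498). The part of any of these cells in the difference of Plaur was not tested.

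**Figure D1:**
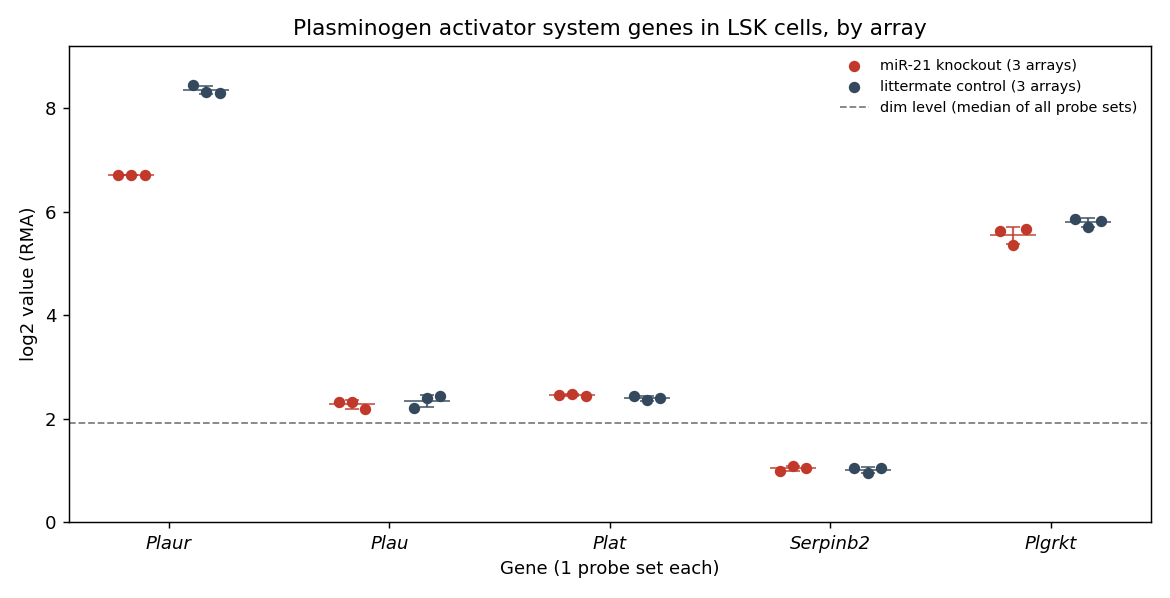
Log2 RMA value (y axis) of the 5 measured genes (x axis) in the 3 knockout arrays (red, left) and the 3 control arrays (dark, right), with the mean and SD as bars and the dim level of 1.92 as a dashed line. Plaur lies at 6.70 to 6.71 in knockout and 8.29 to 8.44 in control, Plgrkt differs by less, and Plau, Plat and Serpinb2 overlap between the groups.

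The activator genes, among them that of the receptor's ligand, overlapped between the groups. Plau, which encodes urokinase, the protease that Plaur binds, had log2 values of 2.33, 2.32 and 2.18 in the knockout arrays, against 2.21, 2.39 and 2.43 in the control arrays. Control replicate 1 lay within the knockout values. The difference was -0.07 ± 0.08 (SE), with a 95% interval of -0.24 to 0.10.

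Plat, which encodes tissue plasminogen activator, the main activator on fibrin, had log2 values of 2.45, 2.48 and 2.44 in knockout and 2.44, 2.35 and 2.39 in control. The lowest knockout value lay 0.01 under the highest control value, so the groups overlapped slightly. The difference was 0.06 ± 0.06 (SE), with a 95% interval of -0.07 to 0.19. Both activator genes lay less than 1 log2 unit above the dim level on every array.

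Among the inhibitors, only Serpinb2 could be read. It encodes plasminogen activator inhibitor type 2, a serpin of macrophages and other stressed cells that blocks urokinase. Its log2 values were 0.996, 1.09 and 1.04 in the knockout arrays, against 1.04, 0.95 and 1.04 in the control arrays, all below the dim level. No fold is given for a gene that was dim in both groups. Its neighbours Serpinb3c, Serpinb11, Serpinb7, Serpinb10 and Serpinb8 in the clade B serpin cluster were dim as well.

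Plgrkt encodes a membrane receptor that binds plasminogen and brings it close to its activators. Its log2 values were 5.62, 5.36 and 5.66 in the knockout arrays, against 5.86, 5.69 and 5.82 in the control arrays. The groups did not overlap, but the gap between them was 0.03, while the knockout values spanned 0.30. The difference was -0.24 ± 0.09 (SE), a 1.18-fold lower level with a 95% interval of 1.03-fold to 1.36-fold. That interval is unadjusted, and Plgrkt was not called in the fit over all genes. Knockout replicate 2 had the lowest value, and without it the difference was -0.15.

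Among these genes, then, the size of the difference was uneven. Of the 4 above the dim level, 1 (Plaur) passed the threshold of an adjusted p under 0.05 as lower, a call that 12% of all genes tested had, and 0 passed as higher, against 19.1% of all genes. The values did not overlap between groups for 2 of the 4 (Plaur and Plgrkt), against 48.0% of all genes. The contrast behind these counts is the one the genes were selected on, so nothing is read from them.

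The other genes of the system were taken from 4 lists that hold 82 genes beside the members. Of these, 72 had a probe set and 55 were above the dim level, and 12 rose in the knockout, 8 fell and 35 did not pass (limma, adjusted p under 0.05). The share called was 36.4%, against 31.1% of all genes tested. The median change was 0.08, against 0.07 for all genes tested.

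In the list of plasminogen activation and inhibition, 10 of 17 genes with a probe set were above the dim level. Plasminogen itself (Plg) was dim, at 1.94 ± 0.08 in knockout and 1.84 ± 0.03 in control (SD, n = 3 each). Of the genes above the dim level in this list, 2 of 10 fell and 0 rose. That was 20.0% called, against 31.1% of all genes tested, and the median change was -0.15. Serpini1, which encodes neuroserpin, an inhibitor of tissue activator, fell by 0.42 on the log2 scale (limma adjusted p = 0.0109), with values of 3.15, 2.87 and 3.19 in knockout and 3.59, 3.36 and 3.51 in control. The values of Serpini1 did not overlap between the groups.

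Hpn, a membrane serine protease that activates pro-HGF and pro-urokinase, fell by 0.19 (limma adjusted p = 0.0303), and its change was -0.21 to -0.17 and not called without knockout replicate 1 or 3 or any 1 control array. Hgf, a growth factor related to plasminogen in structure, did not pass (-0.15, limma adjusted p = 0.267), except when knockout replicate 1 was left out (-0.27). The plasmin inhibitor Serpinf2 was at 0.17 with an adjusted p of 0.126.

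The 5 measured genes listed for plasminogen-binding proteins were Anxa2, S100a10, Actb, Krt8 and Gapdh, while Eno1 and Hmgb1 had no probe set of their own. Of these 5, 1 rose and 0 fell (20.0% called, against 31.1% of all genes tested). The median change, that of Krt8, was 0.06. Anxa2, the annexin that docks plasminogen and tissue activator on the membrane, rose by 0.41 (limma adjusted p = 0.00499). It had values of 5.50, 5.28 and 5.52 in knockout and 5.09, 4.92 and 5.04 in control. S100a10, its partner in the annexin complex, was at -0.18 with an adjusted p of 0.102. The changes of Anxa2 and S100a10 thus had opposite signs, and the difference between them was not tested.

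The partners of the urokinase receptor moved in both directions. The 22 measured genes of this list comprised 7 that rose, 5 that fell and 10 below the threshold, around a median change of 0.07. The share called was 54.5%, against 31.1% of all genes tested. The largest change in this list was that of Itga3, the integrin alpha 3 chain, which pairs with beta 1 and is known to bind the receptor. Itga3 had values of 3.27, 3.38 and 3.07 in knockout, against 4.56, 4.45 and 4.23 in control, with no overlap. It fell by 1.17, a 2.26-fold lower level (limma adjusted p = 6.64e-05).

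Other falls were seen for Igf2r, the mannose 6-phosphate receptor that binds Plaur and plasminogen (-0.54, limma adjusted p = 2.05e-04), and Itgam, the alpha chain of Mac-1 (-0.43, limma adjusted p = 0.00175). Its beta chain gene Itgb2 was at 0.13 with an adjusted p of 0.118. Lrp1, the endocytic receptor that clears urokinase bound to its inhibitor and receptor, fell by 0.28 (limma adjusted p = 0.0105). The 5th gene that fell was Itgb1 at -0.23, whose call was lost with 5 of the 6 arrays left out in turn (-0.25 to -0.15). Without knockout replicate 3 it was kept.

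Among the genes that rose were Il6st, the shared signalling chain of interleukin-6 family receptors (0.56, limma adjusted p = 2.05e-04), Itgb3, the beta chain of the vitronectin receptor (0.54, limma adjusted p = 2.60e-04), and Cxcr4, the receptor for the niche chemokine Cxcl12 (0.39, limma adjusted p = 0.00733). Vitronectin itself (Vtn), the matrix ligand of the receptor, was at 0.11 with an adjusted p of 0.278, from values that overlapped between groups. The integrin genes of the list therefore split, with Itga3, Itgam and Itgb1 lower, Itgb3 and Itga5 (0.38) higher, and Itga4, Itga6, Itgav, Itgax and Itgb2 not called.

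**Figure D2:**
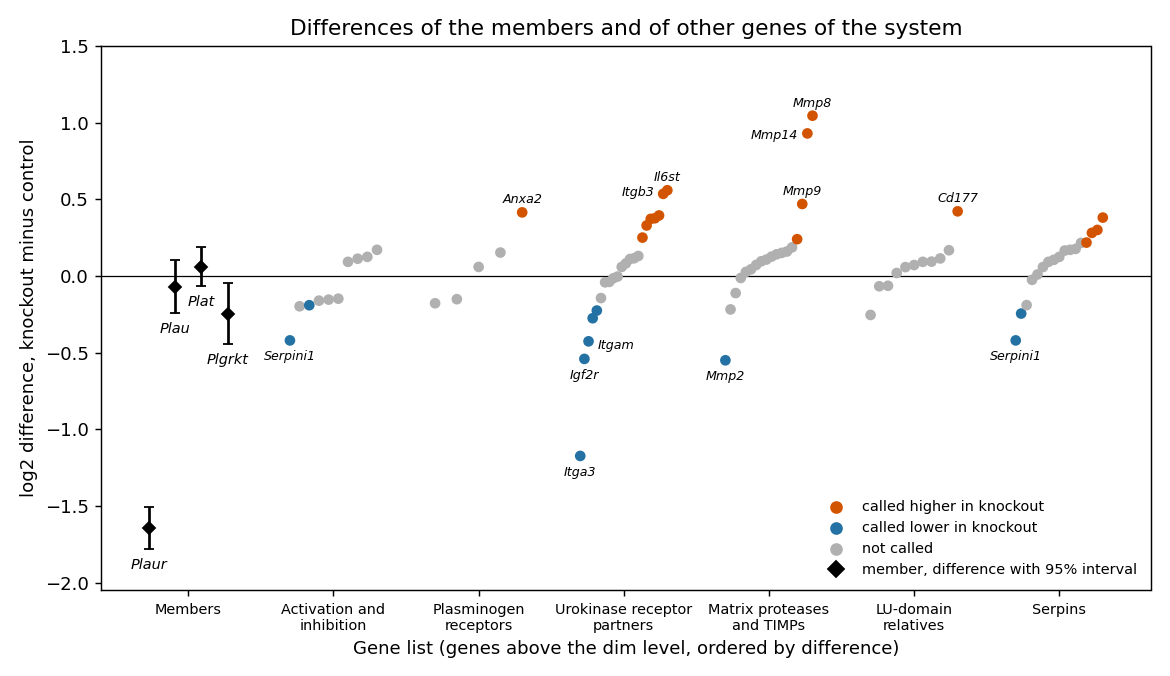
Log2 difference, knockout minus control (y axis), of the 4 members above the dim level, with 95% intervals, and of the tested genes of 6 lists (x axis), coloured by call. Plaur at -1.64 lies below every other gene shown, the next being Itga3 at -1.17, and Mmp8 at 1.05 lies highest.

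Matrix metalloproteases, some of which plasmin can activate, were higher where they were called, apart from Mmp2. The list held 18 measured proteases, inhibitors and regulators, of which 4 rose and 1 fell, and its median change was 0.12. That put 27.8% of the list past the threshold, against 31.1% of all genes tested. Mmp8, the neutrophil collagenase, had values of 2.997, 2.96 and 2.99 in knockout and 1.99, 1.90 and 1.92 in control. It rose by 1.05 (limma adjusted p = 5.01e-06), from a control mean of 1.94 at the edge of the dim level. Mmp8 is also 1 of the 12 neutrophil markers above, all of which rose.

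Mmp14, a membrane-anchored protease that activates pro-Mmp2, had values of 4.11, 4.25 and 4.23 in knockout and 3.27, 3.31 and 3.23 in control and rose by 0.93 (limma adjusted p = 1.49e-05). The gelatinase Mmp9 rose by 0.47 (limma adjusted p = 0.00425) and the gelatinase Mmp2 fell by 0.55 (limma adjusted p = 0.00251). Bsg, an inducer of metalloproteases, was the 4th gene that rose (0.24), and it missed the threshold when knockout replicate 3, control replicate 2 or control replicate 3 was left out (with 0.22 in each case). The inhibitor Timp1 did not pass (0.03, adjusted p = 0.792), nor did Timp2 or Timp3.

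The families of the members were also read. Plaur belongs to the LU-domain family, whose proteins share a fold of 3 fingers. Its 11 measured relatives had a median change of 0.07, and 1 of them rose and 0 fell (9.09% called, against 31.1% of all genes tested). The gene that rose was Cd177, a surface protein of neutrophils (0.42, limma adjusted p = 8.59e-04), at 3.64 ± 0.05 in knockout and 3.21 ± 0.02 in control (SD, n = 3 each). The complement inhibitors Cd59a (0.17, adjusted p = 0.254) and Cd59b (0.09, adjusted p = 0.219) did not pass.

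Of 59 other genes with a Serpin symbol, 42 were dim, and the other 17 had a median change of 0.12. In that group 4 genes rose and 2 fell (35.3% called, against 31.1% of all genes tested), Serpini1 being 1 of the 2. Serpinb1a, which inhibits neutrophil proteases, rose by 0.38 (limma adjusted p = 0.00676), and Serpinb1-ps1, which is named as a pseudogene and may share probes with it, rose by 0.28. Serpinf1, a serpin without protease inhibition, rose by 0.30 (limma adjusted p = 0.00436). Serpinb9, the granzyme B inhibitor, fell by 0.25 (limma adjusted p = 0.0384), a call that did not hold when any 1 of knockout replicates 2 and 3 and control replicates 2 and 3 was left out (-0.27 to -0.18).

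The genes around Plaur had differences near 0. This comparison was chosen after the values of the members were seen. In the order of protein-coding genes in RefSeq, its neighbours on one side are Kcnn4, Smg9 and Irgc1, and on the other Cadm4, Zfp428 and Irgq. Their changes were -0.03, 0.14 and -0.14 on the first side and 0.03, 0.08 and -0.02 on the second, and none was called (limma adjusted p from 0.118 to 0.866). The nearest genes, Irgc1 and Cadm4, averaged 2.995 and 3.71 in knockout and 3.13 and 3.67 in control.

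**Figure D3:**
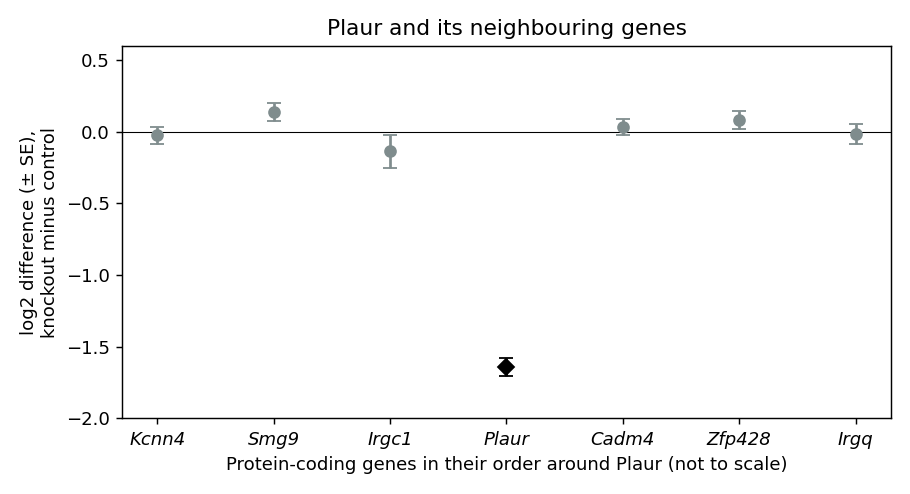
Log2 difference, knockout minus control, with SE (y axis), of Plaur (diamond) and the 3 protein-coding genes on each side of it (circles), placed in order and not to scale. Plaur lies at -1.64 and the neighbours between -0.14 and 0.14.

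The genes whose pattern over the 6 arrays was most like that of Plaur were found by the root mean square difference of values centred on each gene's mean. They were Rasgef1b, an exchange factor of small GTPases, with a difference of 0.06 log2 units, the anthrax toxin receptor Antxr2 (0.07), the peptide transporter Slc15a2 (0.08), the pseudokinase Trib1 (0.09) and the insulin receptor substrate Irs2 (0.09). Pearson correlations with Plaur were 0.998 for Rasgef1b, 0.996 for Antxr2, 0.996 for Slc15a2, 0.9996 for Trib1 and 0.995 for Irs2. The points are 6 arrays in 2 groups, so that any gene with a large and even group difference correlates closely, and the values describe likeness only.

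Those 5 genes averaged 4.76 (Rasgef1b), 4.42 (Antxr2), 2.83 (Slc15a2), 5.07 (Trib1) and 6.91 (Irs2) in knockout, against 6.36, 6.06, 4.39, 6.55 and 8.60 in control. For Plgrkt the closest genes were Ctso, Ate1, Rsrc2, Wwp1 and Srp54c, at 0.02 to 0.03 log2 units. Each of these was lower by 0.20 to 0.29 in knockout. After centring, Plgrkt (-0.31) and these genes (-0.35 to -0.28) were all lowest on knockout replicate 2. Spread between the knockout arrays is therefore part of this likeness. For Plau they were Gnmt, Olfr1373, Prss29, Mybpc3 and Erlin2, and for Plat they were Capg, Chadl, Parvg, Mapt and Cdk2ap1. The patterns of Plau and Plat are set by spread between arrays, as the groups overlap.

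**Figure D4:**
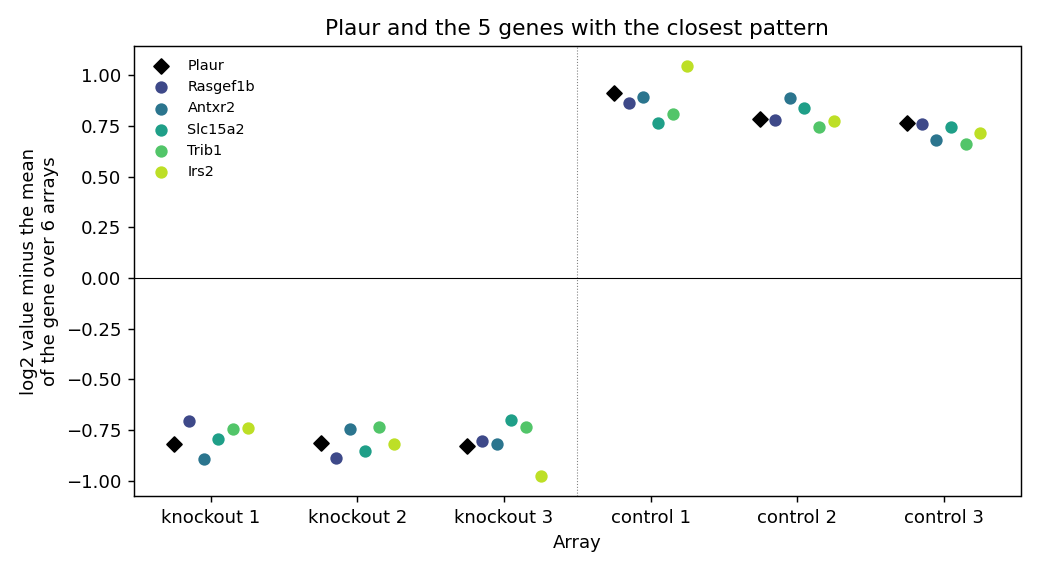
Log2 value minus the gene's mean over the 6 arrays (y axis) of Plaur (black diamonds) and the 5 genes most like it (coloured circles) on each array (x axis). All 6 genes lie below 0 on the knockout arrays and above 0 on the control arrays.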

How the data were processed

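RNA of LSK cells from 3 knockout and 3 control samples was hybridised to Affymetrix arrays, 1 per sample, from 250 ng of total RNA. The authors deposited log2 values, 1 column per array, with RMA named in the submitters' processing notes. Base 2 is inferred, since no value exceeds 11.5. Software version and genome build are not given in the sources used here.

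Probe sets were named through GEO's platform annotation, with symbols updated by Entrez ID through RefSeq (GRCm38.p6). Of 65956 probe sets, 31221 had 1 gene, 1529 several and 33206 were not listed. Several symbols that RefSeq lists as synonyms of 1 gene were counted as 1 gene. The brightest probe set stood for a gene, and 11656 genes with a mean under the median of all probe sets (1.92) were left out as dim.

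Groups come from the sample labels. A two-sided moderated test was run in limma 3.58.1 (R 4.3.3) by lmFit followed by eBayes. P-values were adjusted by Benjamini-Hochberg over 19092 genes, and 0.05 was the threshold. The fit was tested on simulated data. Changes are knockout minus control. Members and lists were chosen with earlier results of these data known. Genes named were the members, up to 3 called genes per direction in each list, a set of genes always named where reported here (Plg, Anxa2, S100a10, Lrp1, Itgam, Itgb2, Vtn, Mmp9, Timp1, Hgf) and the 5 genes most like each member, with provisional and small RNA symbols left out. Other names were chosen after their values were seen. Further marker lists are given in the closing section.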

Additional observations from a re-analysis of the deposited data

How the results depend on the processing

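The number of genes called, 5945, was 4163 to 5139 when single arrays were left out and 4720 to 7212 under the other alternatives. These were centring on the median, a second quantile normalization, no filter or a stricter filter (4) on dim genes, the mean of probe sets, array weights, a variance trend and a replicate block. The 20 called genes of the wider system became 16 to 18 without single arrays and 15 to 23 otherwise. Over the alternatives that kept the gene, Plaur differed by -1.70 to -1.60, Plau by -0.13 to -0.02, Plat by 0.04 to 0.08 and Plgrkt by -0.30 to -0.15; the stricter filter left out Plau and Plat. With the stricter filter and with the replicate block, 2 members in place of 1 passed, the second being Plgrkt. For genes other than the members that were named or called in the lists, 389 recomputed values kept their side of the threshold, 30 lost the call (Itgb1, Hpn, Pdgfrb, Serpinb9, Bsg and Serpina3i), 2 gained it (Itgb2 and Hgf) and 0 called values changed sign. Timp1, not called, ranged from -0.03 to 0.07. The second quantile normalization alone gave the gain of Itgb2 (0.17).

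The replicate numbers were not taken to pair arrays. Deviations of knockout and control arrays with the same number correlated by 0.175, 0.196 and 0.071, each the highest for its arrays, a hint from the data and not from the design. With the block 7212 genes passed.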

Other observations

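Markers of other cells that a marrow sort could hold were read as lists. The counts below are to be set against all genes tested, of which 19.1% were called higher and 31.1% were called in either direction. Of 6 mast cell and basophil markers tested, 5 rose and 1 fell (median 0.91), led by the basophil protease Mcpt8 at 2.06; of the 5, Fcer1a was below the dim level in control (3.07 in knockout, 1.70 in control) and passed the filter through its knockout values. The platelet lineage had 4 of 6 markers higher and 0 lower, with a median change of 0.31. B cell markers (1 of 3 higher), T and NK cell markers (1 of 5 higher, Klrb1c, at 2.39 in knockout and at 1.85, below the dim level, in control) and stromal and endothelial markers (1 of 6 lower, Emcn at -0.98) had 1 call each. The fall of Emcn was not shared by Cdh5 and Pecam1, which were not called, and Kdr was dim, so no cell type is read from it. Summed linear signals of T and NK cell markers were 33.1 to 35.5 in knockout and 30.6 to 31.9 in control, and those of stromal and endothelial markers 117 to 123 and 122 to 131. Their part in the difference of Plaur was not tested.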
